A study of Mus musculus with 12 samples.

Results

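The CpG sites described here lie in the sequence CCGC, which reads GCGG on the opposite strand, so that the CpG is followed by C on 1 strand and by G on the other. They were taken from the autosomal rows of the deposited table with 5 or fewer CpG sites within 100 bp on each side, the site itself included, whose neighbouring bases on the mm10 forward strand were C before and C after, or G before and G after. There were 1499452 such sites among 15761875 autosomal sites of the same low CpG density (9.51%) and 21867550 CpG sites in the whole table. On the forward strand 748856 of them read CCGC and 750596 read GCGG. By the GENCODE annotation, 46.7% lay in introns, 42.6% between genes, 5.50% within 1000 bp of a transcription start and 5.19% in other exons, against 45.3%, 45.7%, 4.69% and 4.34% of all low-density sites.

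Methylation was measured by enhanced reduced representation bisulfite sequencing (eRRBS), in which DNA is cut with restriction enzymes and unmethylated cytosines are converted so that they are read as T. All 12 lines were mouse embryonic stem (ES) cells lacking Dnmt1, Dnmt3a and Dnmt3b (triple knockout, TKO) that carried a human DNA methyltransferase in the pPyCAGIZ vector and were kept under Zeocin, selected at 50 µg/ml and maintained at 25 µg/ml. The 6 groups, with 2 independently derived lines each, expressed DNMT3A WT, DNMT3B WT (sets a and b, made of different lines), or DNMT3B carrying N656I, K777A or N779A. DNMT3A and N656I were compared with set a, and K777A and N779A with set b, an assignment taken from the names of the libraries and the study's library summaries, since the titles only distinguish the sets by letter. The enzymes are human proteins expressed from a transgene in mouse cells, and their amount in each line was not analysed here. Cells with the empty vector were not analysed here either, so no assay background was subtracted.

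DNMT3A and DNMT3B place methyl groups on unmethylated CpG sites, whereas DNMT1 copies an existing pattern after replication, so cells without DNMT1 lack the enzyme that maintains it. Each enzyme acts on the cytosine of 1 strand at a time and contacts the bases around it. N656 of DNMT3B lies in the catalytic loop, and K777 and N779 lie in the target recognition domain, a part that contacts the CpG and the bases beside it. A CCGC site offers the enzyme a following C on 1 strand and a following G on the other, and since the table sums both strands of a CpG, a level here cannot be split into its strands.

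Every site was read in the direction in which C follows, as CCGC with 2 more bases on each side, so the bases before the capitals are at −3 and −2 of the CpG and those after them at +2 and +3. This gave contexts of 8 bases with between 69 and 49835 sites each, of which 249 had at least 20 covered sites in all 12 lines. The contexts at both ends of the range of mean level in the DNMT3A lines and in the 4 WT DNMT3B lines are shown because they differ in the bases that the rest of the results turn on; capitals mark the CpG and its neighbours.
DNMT3A lines, highest 1: gtCCGCaa
DNMT3A lines, highest 2: ttCCGCaa
DNMT3A lines, highest 3: gtCCGCac
DNMT3A lines, lowest 1: ccCCGCgg
DNMT3A lines, lowest 2: caCCGCgg
DNMT3A lines, lowest 3: aaCCGCgg
WT DNMT3B lines, highest 1: cgCCGCag
WT DNMT3B lines, highest 2: cgCCGCac
WT DNMT3B lines, highest 3: tgCCGCac
WT DNMT3B lines, lowest 1: aaCCGCcc
WT DNMT3B lines, lowest 2: aaCCGCct
WT DNMT3B lines, lowest 3: aaCCGCtt
In DNMT3A lines the 3 highest contexts had T at −2 and A at +2, with levels of 56.3% ± 0.561, 54.9% ± 0.0522 and 54.5% ± 4.03 (SD, n = 2), and the 3 lowest ended in gg, with 20.9% ± 1.35, 21.7% ± 0.384 and 26.2% ± 1.99. In WT DNMT3B lines the 3 highest had G at −2 and A at +2, with 20.2% ± 4.56, 19.6% ± 5.61 and 19.6% ± 4.47 (SD, n = 4), and the 3 lowest had A at both −3 and −2, with 3.93% ± 0.503, 4.44% ± 0.548 and 5.02% ± 1.04. Contexts with G at +2, or with cg before or after the capitals, hold another CpG, as did 83900 of the sites (5.6%).

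Depth limits what can be said of single sites. Reads on CpG sites numbered 16224222 to 36029921 per line, 4.49% to 49.1% of the CCGC sites were covered in a line, 3376 were covered in all 12, and 10 had 10 or more reads in all 12. Levels are therefore means over the covered sites of a line, each site weighted equally, of methylated reads divided by all reads, and their error is the spread between lines. Replicate 2 of WT set a stood apart in coverage: it covered 4.49% of the sites with a mean of 16.9 reads per covered site, against at most 5.29 in the other lines. Of its sites with at least 10 reads, 8.95% were methylated in every read, against 0.640% in replicate 1. Such gaps were also seen between the DNMT3A lines (3.80% in replicate 1 and 13.2% in replicate 2) and the lines of WT set b (3.24% and 0.712%).

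At 5 or more reads in every line and without very deep sites, 1 CCGC site remained, and it shows the surrounding sequence and the precision of a single site. It lies between genes at chr8:97721070-97721071 (mm10), 118978 bp from the nearest annotated gene, Gm39231. Its 30 bases from 97721056 to 97721085 on the forward strand are given with the CpG and its neighbours in capitals.
Site on chromosome 8: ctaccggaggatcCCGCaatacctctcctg
DNMT3A replicate 1 had 10 of 20 reads methylated (50%, exact 95% confidence interval 27.2% to 72.8%) and replicate 2 had 2 of 15 reads (13.3%, exact 95% confidence interval 1.66% to 40.5%). The K777A lines had 0 of 6 reads and 0 of 7 reads, with upper limits of 45.9% and 41.0%. The intervals of all 12 lines overlapped; they cover counting error only.

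CCGC sites were highly methylated in DNMT3A lines and poorly methylated in all lines with DNMT3B or a mutant of it. Their level was 39.6% and 39.7% in DNMT3A lines, 12% and 11.8% in WT set a and 9.89% and 9.27% in WT set b. N656I lines had 9.41% and 6.90%, K777A lines 4.54% and 4.93% and N779A lines 9.06% and 10.2%. DNMT3A lines methylated them nearly as much as low-density sites in general (40.6% and 40.5%), whereas low-density sites in general were at 18.5% and 17.5% in WT set a and 15.5% and 14.2% in WT set b. The level divided by that of all low-density sites of the same line, the relative level, was 0.978 ± 0.006 (SD, n = 2) in DNMT3A lines and 0.652 ± 0.016 (SD, n = 4) in WT DNMT3B lines.

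**Figure D1:**
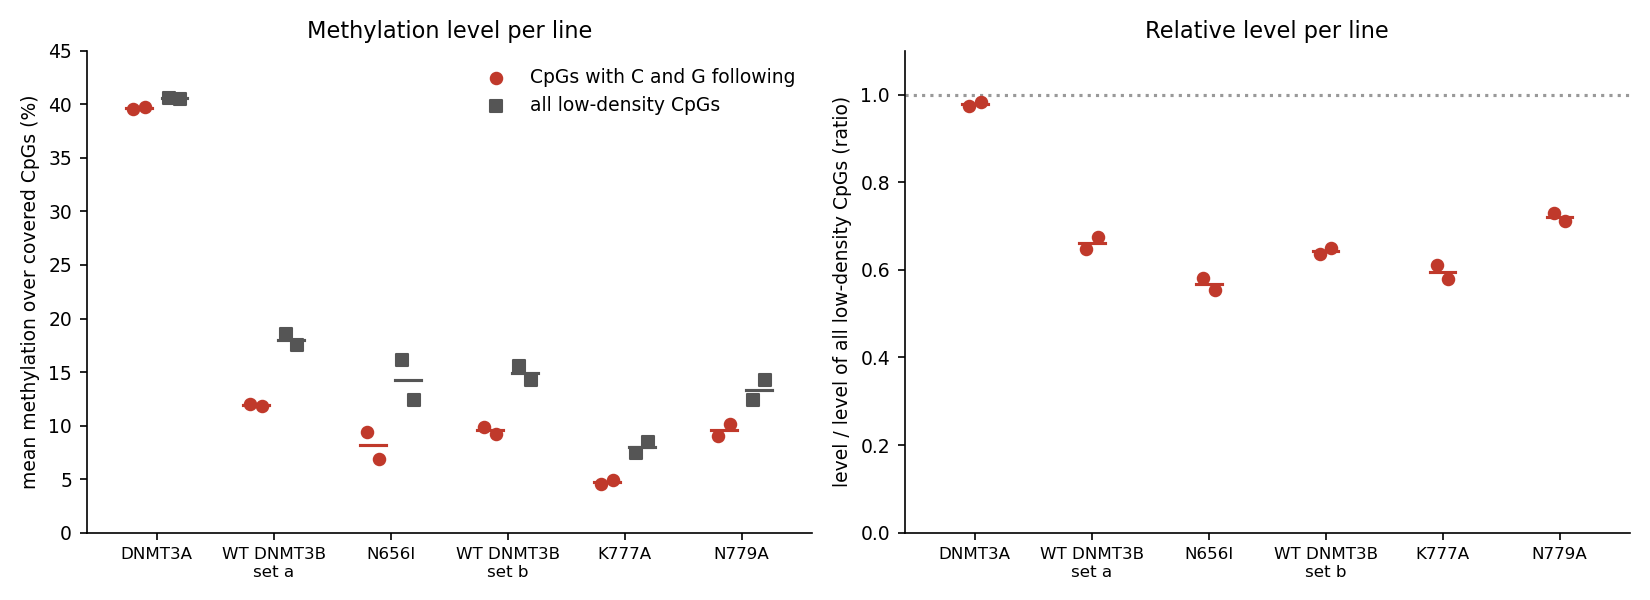
Mean methylation of CCGC sites and of all low-density CpG sites in percent, and the ratio of both, in the 6 groups; points are lines and bars group means (n = 2). The DNMT3A lines lie near 40% with a ratio of 0.978 ± 0.006, and the relative level of all lines with DNMT3B or a mutant is at most 0.729.

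DNMT3A lines exceeded WT set a by 27.8 percentage points, a ratio of 3.33, and by 0.317 in relative level (27.7 percentage points and 0.331 without replicate 2 of WT set a). N656I lines were below WT set a, at 8.16% ± 1.78 against 11.9% ± 0.112, and at a relative level of 0.569 ± 0.019 against 0.661 ± 0.020. The difference in level of -3.74 percentage points was -2.48 without N656I replicate 2, and against WT set b it was -1.42 with overlapping lines. K777A lines had 4.73% ± 0.279 against 9.58% ± 0.441 in WT set b, a ratio of 0.494, while their relative level of 0.595 ± 0.022 was close to the 0.644 ± 0.009 of WT set b, without overlap. For N779A the level of 9.61% ± 0.774 differed from WT set b by less than the spread between lines, and the relative level of 0.720 ± 0.013 was higher without overlap. WT set a exceeded WT set b by 2.32 percentage points without overlap, and the relative levels of the 2 sets overlapped. With 2 against 2 lines the smallest two-sided exact permutation p is 0.33, which every comparison without overlap reached, so no difference here could pass 0.05. The comparisons share the WT lines.

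The class can be set against GCGC sites, where C follows on both strands (590802 low-density sites), and CCGG sites, where G follows on both (1049257). In WT DNMT3B lines CCGC lay between them and nearer to GCGC: set a had 8.80% and 9.09% at GCGC and 28% and 25.9% at CCGG, and set b 7.28% and 6.84% and 23.9% and 22.1%. The CCGC level divided by the midpoint of the other classes was 0.651 and 0.675 in set a and 0.635 and 0.640 in set b. N656I lines had lower ratios of 0.556 and 0.522, with 4.68% and 3.40% at GCGC against 29.2% and 23.0% at CCGG, and N779A lines had 0.702 and 0.673.

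DNMT3A and K777A lines departed from this order in different ways. In DNMT3A lines CCGC was below both other classes, which stood at 49.5% and 49.4% for GCGC and 43.9% and 43.7% for CCGG. In K777A lines GCGC and CCGG changed places, with 6.27% and 6.88% at GCGC and 2.05% and 2.08% at CCGG, and these were the 2 lines of the 12 in which CCGC was above the midpoint, with ratios of 1.09 and 1.1. Among the 10 classes of neighbouring bases CCGC ranked 7 by level in DNMT3A lines, 9 in WT DNMT3B lines, 6 in N656I and 8 in K777A and N779A lines. CCGG is the recognition site of MspI, an enzyme used to cut the DNA, and the part of this in its levels was not tested.

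**Figure D2:**
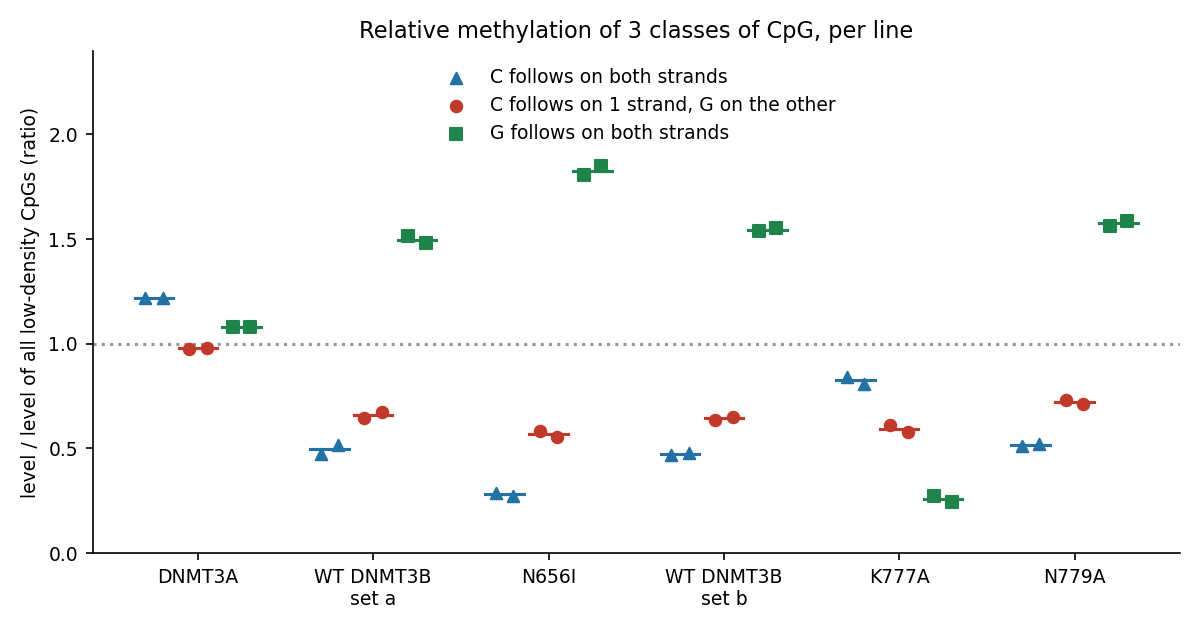
Level of the 3 classes divided by that of all low-density CpG sites of the line; points are lines, bars group means (n = 2). CCGC lies between the other classes in the 10 lines with DNMT3B or a mutant and below both in the 2 DNMT3A lines.

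The base at −2 had the largest effect of the 4 positions in WT DNMT3B, N656I and K777A lines. G at −2 gave the highest level in DNMT3A, WT DNMT3B, N656I and N779A lines and the lowest in K777A lines. In WT set a the level was 15.1% ± 0.185 with G, 12.5% ± 0.311 with C, 11.2% ± 0.163 with T and 9.31% ± 0.0910 with A (SD, n = 2). K777A lines had 3.0% ± 0.197 with G, 3.69% ± 0.193 with A, 5.26% ± 0.271 with C and 6.72% ± 0.455 with T. N656I lines ran from 5.70% ± 1.29 with A to 13.1% ± 2.59 with G, and DNMT3A lines from 36.4% ± 0.239 with C to 45.1% ± 0.107 with G. The ratio of the highest to the lowest base at −2 was 1.24 in both lines for DNMT3A, 1.62 to 1.72 in the WT DNMT3B lines, 2.26 and 2.35 for N656I, 2.24 in both lines for K777A and 1.29 and 1.25 for N779A.

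In DNMT3A lines the base at −3 had a larger effect than that at −2 (highest over lowest 1.29 in both lines), and in N779A lines the base at +2 did (1.60 and 1.57). At +2, A gave the highest level in all lines but those with N656I, at 45.3% ± 0.163 in DNMT3A, 14.6% ± 0.288 in WT set a and 5.6% ± 0.351 in K777A lines. In N656I lines G at +2, which makes another CpG and was present at 3.53% of sites, exceeded it (10.4% ± 1.90 against 9.26% ± 1.90). At −3, C gave the lowest level in DNMT3A lines (34.3% ± 0.160) and N656I lines (6.83% ± 1.69) and the highest in K777A lines (5.97% ± 0.382, against 3.44% ± 0.211 with A). At +3, T gave the lowest level in all lines with DNMT3B or a mutant and G in DNMT3A lines (37.4% ± 0.00599), and the highest exceeded the lowest by a ratio of 1.1 to 1.46 over the 12 lines.

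**Figure D3:**
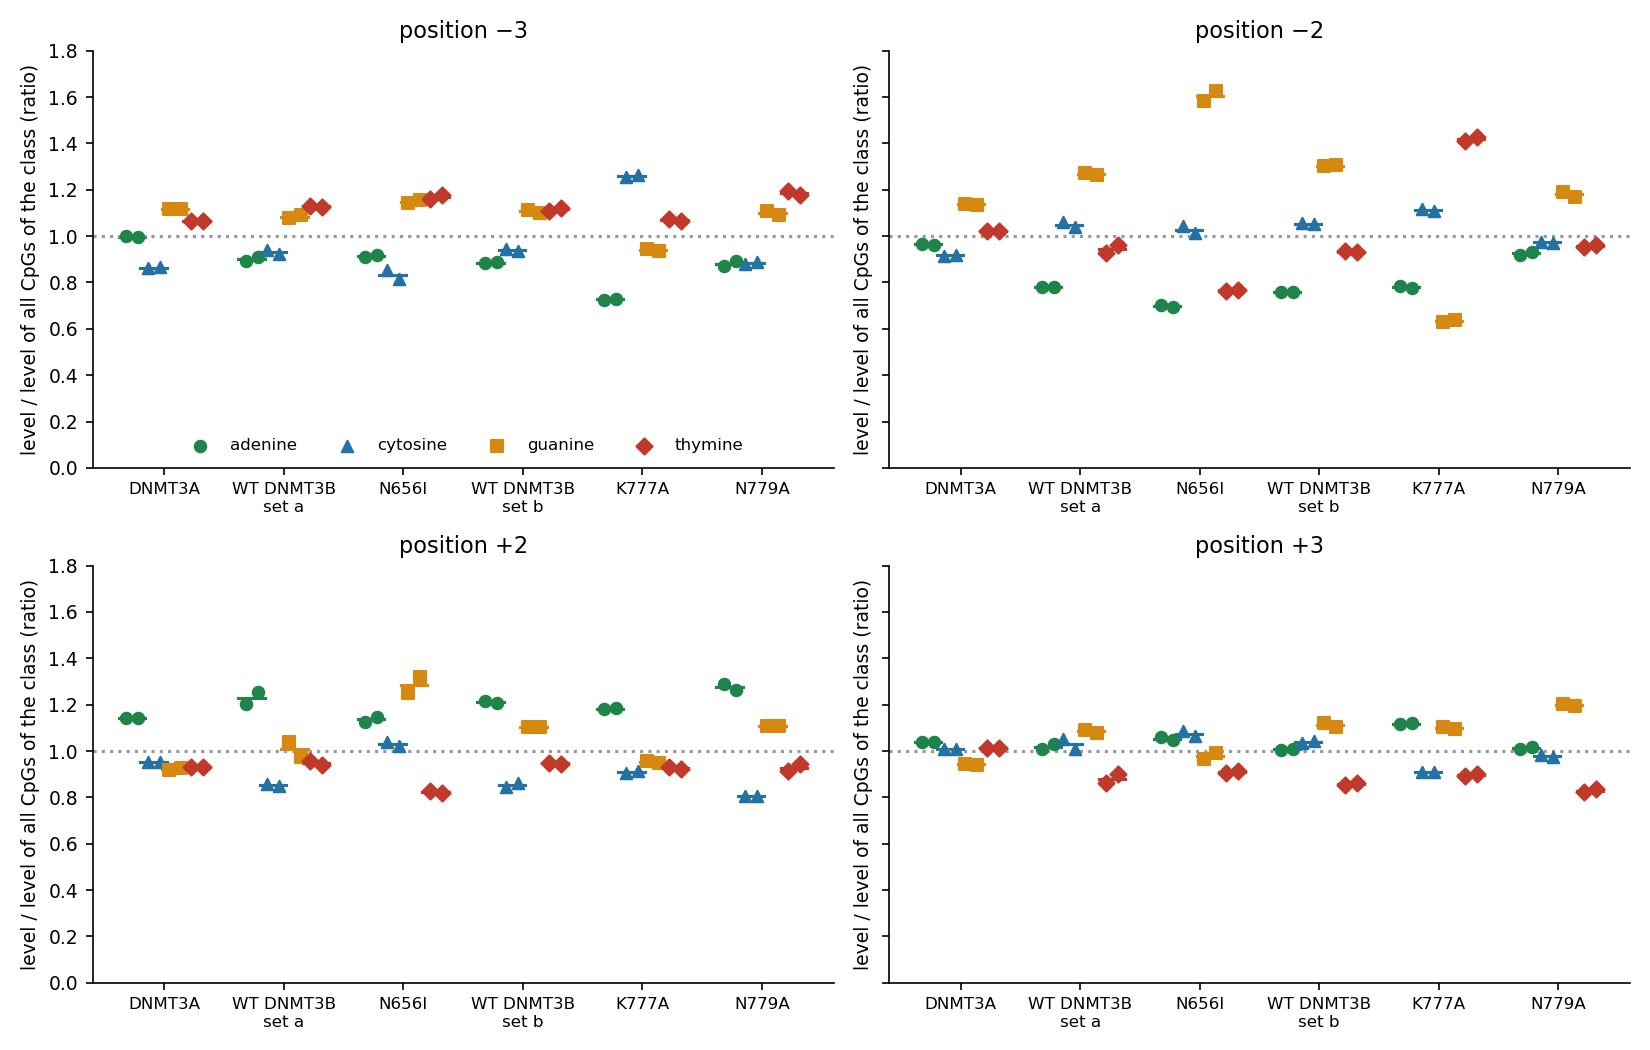
Level of CCGC sites with each base at −3, −2, +2 and +3 divided by the level of all CCGC sites of the line; points are lines, bars group means (n = 2), colours and shapes the 4 bases. Guanine at −2 is highest in N656I lines, at 1.58 and 1.63, and lowest in K777A lines, at 0.632 and 0.638, where thymine reaches 1.41 and 1.43.

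Contexts that differed in 1 base only gave the same picture at −2 and +2, but a smaller effect at −3 in some lines. The pairs were chosen after the values were seen, share libraries, and are a description. With G in place of T at −2, 57 pairs could be compared. G was the higher in 57 in both lines for N656I and in 0 in both lines for K777A. It was higher in 45 to 55 pairs in WT DNMT3B lines and in 37 to 39 in DNMT3A and N779A lines. The median ratio of G to T was 2.10 and 2.05 for N656I, 1.40 and 1.33 for WT set a, 1.39 and 1.37 for WT set b, 1.25 and 1.18 for N779A, 1.08 and 1.07 for DNMT3A and 0.473 and 0.480 for K777A. With T in place of C at −3, 59 pairs could be compared. The number with T the higher was 58 in both lines for DNMT3A and 11 and 10 for K777A. It was 31 to 38 in WT DNMT3B lines, with median ratios of 1.03 to 1.05. For N656I it was 43 and 44 (ratios of 1.11 and 1.18), and for N779A 54 and 51. The effect of −3 in WT DNMT3B and N656I lines was smaller in pairs than in the levels by base. Those were 13.4% ± 0.162 with T and 11.1% ± 0.258 with C in WT set a. A in place of T at +2 was higher in 55 to 63 of 63 pairs over the 12 lines, with median ratios of 1.22 to 1.5.

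**Figure D4:**
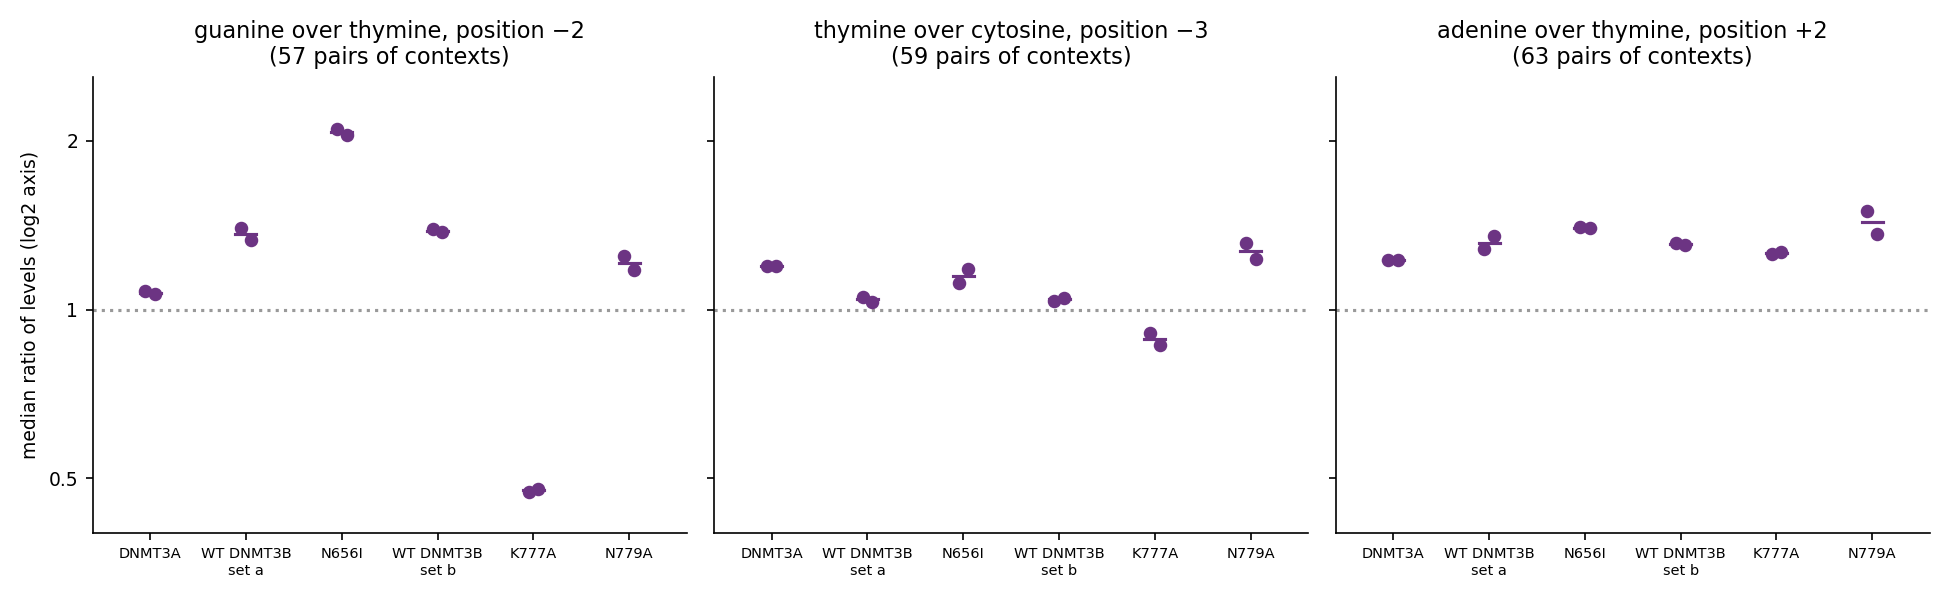
Median ratio of the levels of contexts that differ in 1 base, on a log2 axis, for guanine over thymine at −2, thymine over cytosine at −3 and adenine over thymine at +2; points are lines, bars group means (n = 2). For guanine over thymine the K777A lines lie at 0.473 and 0.480 and the 10 other lines above 1.

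The effect of −2 is seen in a pair of hexamers with A at +2, shown because their order reverses between mutants; capitals mark the CpG and its neighbours.
G at −2: gCCGCa
T at −2: tCCGCa
For gCCGCa the level was 48.1% and 48.4% in DNMT3A lines, 17.8% and 18% in WT set a, 16.7% and 12.7% in N656I, 15.4% and 14.5% in WT set b, 3.19% and 3.66% in K777A and 14.6% and 15.7% in N779A lines. For tCCGCa it was 47.4% and 47.9% in DNMT3A lines, 12.1% and 13% in WT set a, 6.49% and 4.83% in N656I, 10.0% and 9.17% in WT set b, 7.98% and 8.73% in K777A and 9.06% and 10.3% in N779A lines. The hexamer with G was the higher in all 10 lines other than K777A, by less than 1 percentage point in DNMT3A lines, and the lower in both K777A lines. With T at +2 the hexamer with G was again the higher in these 10 lines and the lower in both K777A lines. With C at +2 the hexamer with T was the higher in both N779A lines as well (8.82% and 9.79% against 7.40% and 8.48%), and with G at +2 it was the higher in both DNMT3A lines (40.8% and 41.0% against 38.7% and 38.4%) and in replicate 2 of WT set a. With A at +2, K777A lines were nearer to WT set b at tCCGCa (8.35% ± 0.532 against 9.59% ± 0.599) than at gCCGCa (3.43% ± 0.328 against 15.0% ± 0.642).

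To test the effect of each base, its log2 odds of methylation were taken relative to the class in the same line, and limma was fitted over the bases and positions of all 10 classes with Benjamini-Hochberg adjustment. K777A lines differed from WT set b in 15 of the 16 CCGC features (background 96.9%). G at −2 fell by 1.11 on the log2 scale (SE 0.012, adjusted p = 6.75e-24), T at −2 rose by 0.65, C at −3 rose by 0.45 and A at −3 fell by 0.29. In an additive regression on the 4 positions the changes at −3 were 0.26 for C and -0.19 for A, and at 10 reads that of A was -0.18 and was not called. N656I lines differed from WT set a in 11 of the 16 (background 68.0%): G at −2 rose by 0.37 (SE 0.021, adjusted p = 2.88e-09), G at +2 by 0.39 and C at +2 by 0.31, and T at −2 fell by 0.32. Against WT set b the change of G at +2 was 0.24.

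DNMT3A lines differed from WT set a in 14 of the 16 features (background 89.8%). A at −2 was higher by 0.31 (SE 0.010, adjusted p = 8.58e-05) and T at +3 by 0.24, with log2 changes of -0.28 for C at −2 and -0.27 for G at +3. N779A lines differed from WT set b in 11 of the 16 (background 80.5%), with A at −2 higher by 0.31 (SE 0.010, adjusted p = 5.45e-07), G at +3 by 0.12, and changes of -0.16 for G and -0.13 for C at −2. At 10 reads the change of G at +3 was 0.08 and was not called. Between the WT sets limma called 0 of the 16 (background 0%), with 3 at an unadjusted p under 0.05; without replicate 1 of set a it called 7, and 34.4% of the features of all classes. Leaving out a line leaves its group with 1, and the fit then assumes that this line varies like the 2 lines of the other group. In the other 4 comparisons 68.8% to 93.8% of the CCGC features were called, above the background by less than 1 percentage point or below it.

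T at −2 can also be placed on either strand: on the strand where C follows, or on the strand where G follows, which is A at +2 in the sequences above. The log2 ratio of the level of the first to that of the second was -0.16 in both lines for DNMT3A, -0.38 to -0.37 in the 4 WT DNMT3B lines, -0.56 and -0.58 for N656I and -0.43 and -0.40 for N779A, so T on the strand where G follows went with the higher level. K777A lines had the opposite sign, with 0.26 and 0.27, from 6.40% and 7.05% for the first and 5.35% and 5.85% for the second. The ratio differed between K777A and WT set b by 0.64, between DNMT3A and WT set a by 0.22 and between N656I and WT set a by -0.19, each without overlap (exact permutation p = 0.33, the smallest possible). N779A and WT set b differed by -0.0370, also without overlap; this was -0.0184 without N779A replicate 1, -0.0557 without replicate 2 and -0.0113 for sites that read CCGC on the forward strand. The WT sets overlapped.

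The 8-base contexts were compared with each line centred on its median over all contexts, so that a change in the log2 odds is relative to the overall level of the line. The largest rises and falls named below are those among contexts called whose uncentred levels did not overlap between groups. A larger centred change with overlapping levels is not named. DNMT3A lines differed from WT set a in 136 of 249 CCGC contexts tested (background 65.8% of 2022 contexts of all classes), 129 higher (background 31.7%) and 7 lower (background 34.1%). The median change of the CCGC contexts was 0.53, against 0.04 for all contexts. The 3 largest rises, all with A at −2, were at aaCCGCcc (37.0% ± 0.557 against 4.17% ± 0.729, log2 change 1.91, SE 0.16, adjusted p = 0.00161), gaCCGCgt (1.85) and aaCCGCct (1.74). The 3 largest falls, all with G at +2, were at ccCCGCgg (20.9% ± 1.35 against 14.7% ± 1.51, log2 change -1.23, SE 0.16, adjusted p = 0.00443), tgCCGCgg (-0.97) and ccCCGCga (-0.83), contexts whose levels were still higher in the DNMT3A lines. Without centring 247 were higher and 0 lower, the median over all contexts then being 1.85 and 93.2% of all contexts higher and 1.09% lower. Without DNMT3A replicate 1 or 2 the count was 46 or 39, and without replicate 2 of WT set a it was 189 of 255, where 33%, 31.6% and 78.5% of all contexts were called. The fall of ccCCGCga passed the threshold in 5 of 12 alternatives, lost it without either DNMT3A line (-0.87 and -0.79) and was -0.54 without replicate 2 of WT set a. That of tgCCGCgg passed in 9 of 13 and was -0.36 with reads weighted equally, -0.39 in the quasi-binomial test and -0.43 against WT set b, where the rise of gaCCGCgt was 0.76. The quasi-binomial test called neither gaCCGCgt (1.81) nor ccCCGCgg (-1.22). Calls were also lost for aaCCGCcc without either DNMT3A line (1.88 and 1.94), for aaCCGCct without replicate 1 (1.64) and for gaCCGCgt without replicate 2 (1.8).

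K777A lines moved in both directions. They differed from WT set b in 141 of 253 CCGC contexts tested (background 79.7% of 2057 contexts of all classes), 54 higher (background 43.7%) and 87 lower (background 36.0%). The median change of the CCGC contexts was -0.11, against 0.17 for all contexts. The 3 largest falls had G at both −2 and +2, at agCCGCgc (2.18% ± 1.37 against 15.5% ± 4.89, log2 change -2.08, SE 0.41, adjusted p = 0.00554), ggCCGCgg (-1.97) and agCCGCgt (-1.74). The 3 largest rises so chosen had T at −2, at ctCCGCga (8.48% ± 0.668 against 7.01% ± 0.541, log2 change 1.26, SE 0.13, adjusted p = 4.63e-04), ctCCGCat (1.26) and gtCCGCat (0.87). At gtCCGCat the level itself was lower in K777A lines (7.69% ± 0.0116 against 8.38% ± 0.363), and the change was -0.14 without centring and 0.52 against WT set a. The rises of ctCCGCga and ctCCGCat were 0.25 and 0.24 without centring and were not called, and that of ctCCGCga was 0.49 at 5 reads, not called. The fall of agCCGCgc was -1.35 at 5 reads and that of ggCCGCgg -1.28 against WT set a, and the quasi-binomial test did not call agCCGCgc, agCCGCgt or ctCCGCga. Without centring 0 were higher and 221 lower, the median over all contexts then being -0.84 and 5.74% of all contexts higher and 67.5% lower. Without contexts that hold another CpG, a choice made after seeing the data, 60 of 165 were higher and 53 lower (all contexts 48.7% and 39.7%).

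N656I lines differed from WT set a in 56 of 249 CCGC contexts tested (background 47.4% of 2022 contexts of all classes), 30 higher (background 26.4%) and 26 lower (background 21.1%). The 3 largest falls had T at −2 and A at +2, at ttCCGCag (5.70% ± 1.35 against 14.7% ± 0.0834, log2 change -0.91, SE 0.11, adjusted p = 0.00613), ttCCGCaa (-0.84) and atCCGCac (-0.83). The 3 largest rises had G at +2, at gaCCGCga (11.5% ± 3.77 against 4.92% ± 1.21, log2 change 1.65, SE 0.14, adjusted p = 0.00386), gaCCGCgt (1.45) and tgCCGCga (1.24). Without N656I replicate 1 or 2 limma called 0 contexts (35 and 41 at an unadjusted p under 0.05), without replicate 1 or 2 of WT set a 99 and 75, and a quasi-binomial test on reads called 1; of all contexts 0%, 58.9%, 50.1% and 1.43% were then called. The fall of atCCGCac passed in 8 of 15 alternatives and was -0.54, no longer called, without replicate 2 of WT set a. The single quasi-binomial call was not among the 56, so that test called none of the named contexts. The rise of gaCCGCgt passed in 5 of 12 alternatives, with values down to 0.37. Those of gaCCGCga and tgCCGCga passed in 8 of 11 and 8 of 12, with values down to 0.96 and 0.62. In replicate 2 of WT set a all covered sites with G at +2 together numbered 2388, so these contexts were rare there. Without centring 3 were higher and 71 lower, the median over all contexts then being -0.61 and 0.247% of all contexts higher and 34.8% lower, and without contexts that hold another CpG 23 of 165 were higher and 53 lower (all contexts 32.6% and 32.6%).

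N779A lines differed from WT set b in 81 of 253 CCGC contexts tested (background 52.7% of 2057 contexts of all classes), 61 higher (background 23.8%) and 20 lower (background 28.9%). The 3 largest rises had A at −2 and G at +2, at taCCGCga (11.1% ± 1.45 against 4.29% ± 0.18, log2 change 1.49, SE 0.09, adjusted p = 0.00287), gaCCGCga (1.05) and taCCGCgg (1.00). The 3 largest falls were at cgCCGCcc (5.61% ± 1.26 against 11% ± 0.0236, log2 change -0.92, SE 0.13, adjusted p = 0.00727), ggCCGCcc (-0.72) and ccCCGCta (-0.64). Without centring 20 were higher and 23 lower, the median over all contexts then being -0.14 and 6.71% of all contexts higher and 28.9% lower. Without N779A replicate 1 or 2 the count was 32 or 35, and the quasi-binomial test called 5, where 32.4%, 35.6% and 12% of all contexts were called. None of the named rises and falls was called in the quasi-binomial test. The rise of taCCGCga passed in 10 of 13 alternatives and was 0.59 at 5 reads and 0.27 against WT set a, not called in either. The fall of cgCCGCcc passed in 12 of 14 and was -0.32, not called, with 1 or 2 CpG sites within 100 bp. The rise of gaCCGCga passed in 8 of 13 alternatives; it was 0.65 without N779A replicate 1, and without replicate 1 or 2 of WT set b it was not called (1.1 and 0.98). The change at taCCGCgg turned to -0.72 among sites with 1 or 2 CpG sites within 100 bp. Its call was lost without N779A replicate 2 (0.78) or replicate 1 of WT set b (0.74), and that of ccCCGCta without either N779A line (-0.53 and -0.74) or replicate 2 of WT set b (-0.47).

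Between the WT sets limma called 0 of 249 contexts (background 0%), with 16 at an unadjusted p under 0.05, and the quasi-binomial test called 0.

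**Figure D5:**
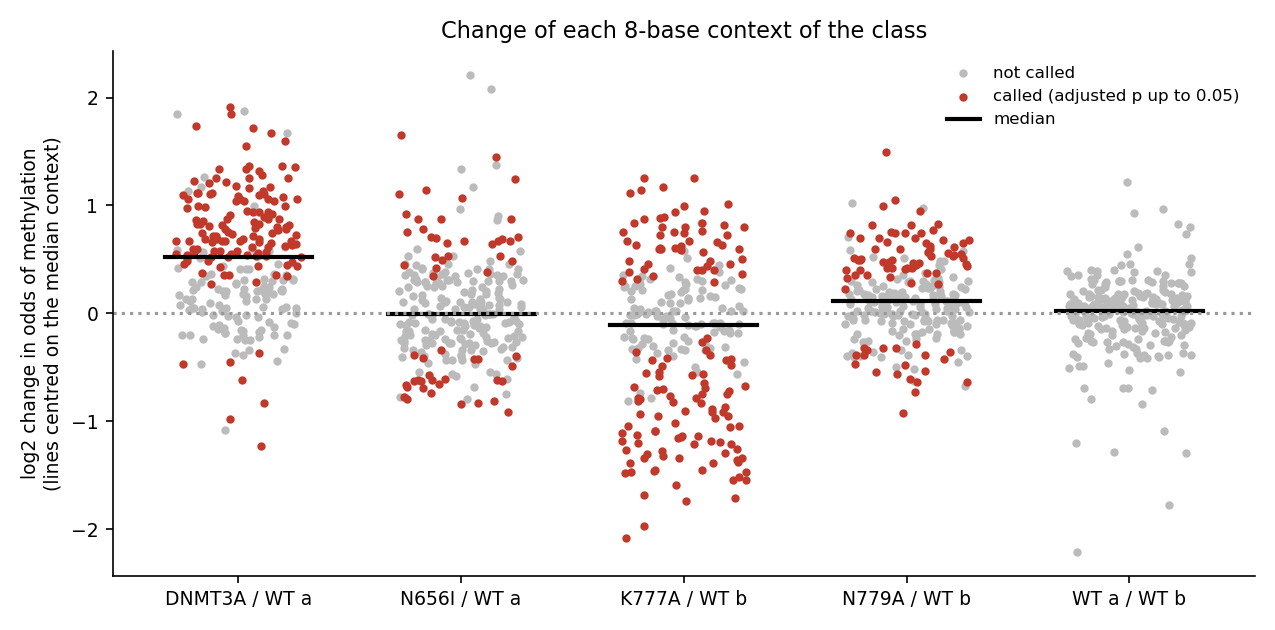
Log2 change in the odds of methylation of each CCGC context in the 5 comparisons, with lines centred on their median context; red points passed an adjusted p of 0.05 in limma and black bars are medians. DNMT3A contexts lie mostly above 0 (median 0.53), K777A contexts spread to both sides, and none was called between the WT sets.

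By place in the genome, in all 12 lines the level was lowest within 1000 bp of a transcription start and highest in exons. Near a start it was 30.1% and 29.7% in DNMT3A lines, 8.63% and 8.29% in WT set a and 3.37% and 3.60% in K777A lines. In exons it was 42.5% and 42.2%, 14.1% and 13.4% and 5.36% and 5.45% in the same order. Sites that read CCGC on the forward strand and those that read GCGG had similar levels, in DNMT3A lines 39.7% in both lines for the first and 39.4% and 39.8% for the second. In DNMT3A replicate 1 the level was 38.9% at 1 CpG site within 100 bp, 40.3% at 3 and 37.9% at 5.

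Between the 2 lines of a group the context levels had a Pearson r of 0.931 in DNMT3A, 0.927 in N656I, 0.921 in K777A, 0.896 in N779A, 0.843 in WT set b and 0.631 in WT set a, over 249 contexts that share libraries and depth and are not replicates. The group means of DNMT3A and WT DNMT3B had an r of 0.357 over the same contexts, and those of K777A and WT DNMT3B 0.152.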

How the data were processed

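eRRBS libraries of 12 lines were cut with MspI, BfaI and MseI. Per the submitters' processing notes the authors used Cutadapt 1.12, Bismark 0.18.1, Bowtie 1.2 and mm10 (GRCm38); the published methods give another Cutadapt version. The authors deposited counts of methylated and of all reads per CpG, both strands summed, without normalization. Groups came from the sample titles, and the pairing of each WT set with its mutants from library names and the study's library summaries. Sequence and place were read from GRCm38 and the GENCODE annotation. Sites with at least 1 read entered the level of a line. Contexts were fitted with limma 3.58.1 (R 4.3.3) on log2 odds (offset 0.5 divided by the number of sites, at least 20 sites per line, variance trend) and base effects without a trend; the threshold was an adjusted p of 0.05. The scripts were tested on simulated data. Levels were compared by exact permutation tests. Python 3.11.15, pandas 2.3.3 and scipy 1.17.1 were used.

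The sites, contexts and tests were chosen with earlier results of these data known. Named contexts were, per comparison, the 3 largest and 3 smallest changes among those called whose uncentred levels did not overlap between groups. The 3 highest and 3 lowest by level were also named. Named sites had at least 5 reads in all 12 lines (fewer than 20 had 10) and were not above the 99.9th percentile of coverage in any line, which left 1. Alternatives were other read minimums, weightings, densities, tests and WT lines, each line left out, and a replicate block; leaving out contexts with another CpG was chosen after seeing the data. P-values measure the spread between 2 lines per group, or with 1 line left out that of the other group only, moderated over all features. The base features share libraries and sites, so the smallest p-values of base effects rest on this pooled variance.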

Additional observations from a re-analysis of the deposited data

How the results depend on the processing

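The N779A level, which differed from WT set b by less than the spread between lines, changed sign with 1 line left out (-0.517 to 0.578 percentage points) and against WT set a (-2.29 percentage points). The strand ratio between the WT sets, near 0, changed sign at 5 reads (0.0185), 10 reads (0.0293), with reads weighted equally (0.0298), with 1 or 2 CpG sites within 100 bp (0.00490), with CCGC on the forward strand only (0.0158), without contexts holding another CpG (0.00668) and with 1 line left out (-0.00612 to 0.00447). Without centring, log2 changes became 0.58 for ccCCGCgg, 0.84 for tgCCGCgg and 0.99 for ccCCGCga in DNMT3A lines (the last 0.14 against WT set b) and -0.14 for gtCCGCat in K777A lines, and taCCGCgg in N779A lines became -0.72 with 1 or 2 CpG sites within 100 bp. Counts of contexts called are given with the share called among all contexts in brackets. They moved for DNMT3A to 247 (94.3%) without centring, 54 (33.9%) in the quasi-binomial test and 39 to 198 (31.6% to 81.5%) with 1 line left out. For N656I they moved to 35 (35.0%) with reads weighted equally, 1 (1.43%) in the quasi-binomial test and 0 to 99 (0% to 58.9%) with 1 line left out. For K777A they moved to 84 (71.2%) with 1 or 2 CpG sites within 100 bp, 221 (73.2%) without centring and 77 (62.7%) in the quasi-binomial test. For N779A they moved to 25 (27.2%) at 5 reads, 30 (35.1%) with 1 or 2 CpG sites within 100 bp, 43 (35.6%) without centring, 43 (38.3%) against WT set a, 5 (12%) in the quasi-binomial test and 32 to 61 (32.4% to 42.5%) with 1 line left out. At 10 reads the base effects called were 7 for K777A (59.4% of all features) and 5 for N779A (30.5%). The cause of these changes was not tested. Same-numbered lines did not deviate together over contexts after centring (correlations -0.0159 to 0.0133). This cannot decide whether the numbers pair the lines, since centring removes a shift of a whole line. With a replicate block, the contexts called were 126 (60.2%), 39 (39.2%), 141 (79.6%) and 60 (46.5%) for DNMT3A, N656I, K777A and N779A. The base effects called between the WT sets then went from 0 to 1 (2.34% of all features).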
